A study of Mus musculus with 2 samples.

Results

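The replication-dependent H1, H3 and H4 genes of the mouse were followed in RNA without a poly(A) tail (NPA RNA) from embryonic stem cells (ESCs) and ESC-derived neuronal progenitor cells (NPCs). The members were all protein-coding genes of the GENCODE M1 annotation of mm9 whose name places them in a replication-dependent cluster as an H1, H3 or H4 gene. These were 30 of 37310 annotated genes, of which 6 were H1, 11 were H3 and 13 were H4 genes, and each was annotated as a single exon. On chromosome 13, 26 of them lay in the Hist1 cluster, with 8 at chr13:21809497-22133221 and 18 at chr13:23622919-23856283. The Hist2 cluster held 3 at chr3:96049477-96073064, and Hist4h4 lay alone at chr6:136752589-136752900.

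The study sequenced NPA RNA of each cell type with strand kept, in 1 library per cell type, after removal of polyadenylated RNA and of ribosomal RNA. The ESC library came from R1 cells at passage 18, grown on a feeder layer. The NPC library came from R1 ESCs that spent 4 days as embryoid bodies and were gathered at day 7. No allele or drug was named for either. Since each cell type has 1 library, nothing measures the spread between replicates and the cell types could not be tested against each other. Every interval given here is a 95% interval of counting error alone, and sets the ESC library against the NPC library. The libraries were amplified by PCR without molecular identifiers, so reads are not independent molecules. In bulk RNA, fewer cells that make an RNA and less of it per cell cannot be told apart.

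Replication-dependent histone genes are transcribed as DNA is copied, and supply the histones that wrap the new DNA. Their mRNAs are the best known animal mRNAs without a poly(A) tail. They end just past a conserved stem-loop that is bound by the stem-loop binding protein, after cleavage directed by the U7 small nuclear RNA, and they are degraded when DNA synthesis stops. H3 and H4 form the tetramer at the heart of the nucleosome core, and H1 binds the linker DNA where it enters and leaves the core.

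The stem-loop marks the 3′ end at which these RNAs stop, so the distinct forms are shown from mm9, 5′ to 3′ on the strand of the gene, with the stem-loop in capitals and 5 nt on each side.
Hist1h1a: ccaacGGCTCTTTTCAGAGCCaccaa
Hist1h1t: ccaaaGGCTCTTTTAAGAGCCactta
Hist1h3g: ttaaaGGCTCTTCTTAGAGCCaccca
Hist1h4c: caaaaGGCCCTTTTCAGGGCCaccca
Hist1h4i: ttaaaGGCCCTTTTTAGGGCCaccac
Hist1h4b: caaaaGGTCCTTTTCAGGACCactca
Hist1h4a: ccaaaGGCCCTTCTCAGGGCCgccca
The capitals lie at chr13:23856261-23856276 on the plus strand for Hist1h1a, at chr13:23788394-23788409 (plus) for Hist1h1t and at chr13:23627758-23627773 (plus) for Hist1h3g. They lie at chr13:23789958-23789973 (minus) for Hist1h4c, chr13:22132835-22132850 (minus) for Hist1h4i, chr13:23849235-23849250 (plus) for Hist1h4b and chr13:23852669-23852684 (minus) for Hist1h4a. The 16 capitals of Hist1h1a were held by 5 H1 and 7 H3 genes, and those of Hist1h1t by 1 H1 and 3 H3 genes. Among the H4 genes, 8 held the form of Hist1h4c, 2 that of Hist1h4i and 2 that of Hist1h4b. Hist1h3g and Hist1h4a each had a form of their own.

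The letters of the stem-loop (GG, any 3 bases, TTTT, any base, A, any 3 bases, CC), searched on the gene strand only, were present in 28 of the 30 members. Within 300 nt past the stop codon the same letters were found in 0.376% of all protein-coding genes and in 0.117% of those that are not in a Hist cluster. Hist1h3g and Hist1h4a matched only when a further base of the loop was left free, a form added after their sequences were seen, which 0.738% of protein-coding genes held in the same window. The last base of the stem-loop lay 40 to 70 nt past the stop codon, and the 70 nt belonged to Hist4h4. The annotated gene ends followed it less closely. In 4 members the annotation stopped before the end of the stem-loop, in 10 it ran over 100 nt past it, and in Hist1h1d it ran 3050 nt past it.

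Within H3 and within H4 most coding sequences are near copies of each other, which limits how far a read can be given to a single member. The H1 genes differ more. Between pairs of genes of a class the coding identity had a median of 70.1% in H1, 97.3% in H3 and 93.9% in H4. Hist1h4m and Hist1h4n were identical over their coding sequence. Of the 48-nt windows in the coding sequence, 87.2% occurred once in mm9 in H1, 15.5% in H3 and 38.6% in H4. The 48-nt coding sequences with the most reads among those shared by at least 5 members show this. They are printed whole because the whole run is shared.
Hist1h3h: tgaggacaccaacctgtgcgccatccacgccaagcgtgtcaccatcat
Hist1h4j: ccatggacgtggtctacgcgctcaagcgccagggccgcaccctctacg
The H3 run lies at chr13:21809842-21809889 on the plus strand in mm9, in the coding part of the Hist1h3h exon, and the same letters occur in 8 members. It had 166 reads in the ESC and 90 in the NPC library, a ratio of NPC to ESC of 0.526 (0.403 to 0.684) after scaling each library by its total. The H4 run lies at chr13:21827215-21827262 on the plus strand, in the coding part of the Hist1h4j exon, and also occurs in 8 members. It had 1981 and 564 reads, a ratio of 0.276 (0.251 to 0.304).

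All 3 classes gave fewer reads in the NPC library. Reads were counted on the gene strand where they overlapped an exon by at least 1 base, and scaled to 4271306 deposited reads in ESC and 4399729 in NPC, as RPM, so that 1 read is worth 0.234 and 0.227 RPM. The H1 genes had 12637 reads in ESC and 6709 in NPC, or 2959 and 1525 RPM, a ratio of 0.515 (0.5003 to 0.531). The H3 genes had 24815 and 12418 reads, or 5810 and 2822 RPM, a ratio of 0.486 (0.475 to 0.496). The H4 genes fell furthest in the count of all reads, with 26829 and 10183 reads, or 6281 and 2314 RPM, a ratio of 0.368 (0.360 to 0.377). Together the members took 1.505% of the ESC and 0.666% of the NPC library.

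With all reads, each member gave the same direction, but the H3 and H4 members are not independent of each other. Reads whose sequence occurs once in the genome made up 20.4% of the H3 and 20.7% of the H4 reads in ESC. Each shared read was placed at only 1 of its copies. Of the 29 members with at least 10 reads of unique sequence, those reads gave an interval wholly below 1 in 24. It lay wholly above 1 in 2 and held 1 in 3. The ratio of all reads was below 1 in 30 of 30 members with the whole interval below 1, and the ratio of distinct start positions was below 1 in 30 of 30. More than 2-fold lower in NPC were 21 of 30 members, 4 of 6 in H1, 6 of 11 in H3 and 11 of 13 in H4, beside 13.3% of the 14859 genes with at least 10 reads, and 0 members were over 2-fold higher, beside 25.5%. With 1 read added in each library, the members' log2 NPC/ESC ratio had a median of -1.06 in H1, -1.32 in H3 and -1.64 in H4, and 0.34 over all those genes. When each start position was counted once, counts were scaled by the distinct starts of each library instead of its reads. Then 2 members were over 2-fold lower, Hist1h1b and Hist1h1t, beside 12.1% of genes, and the class ratios were 0.564, 0.561 and 0.641. A gene this short has few start positions to fill, so such a count is bounded.

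**Figure D1:**
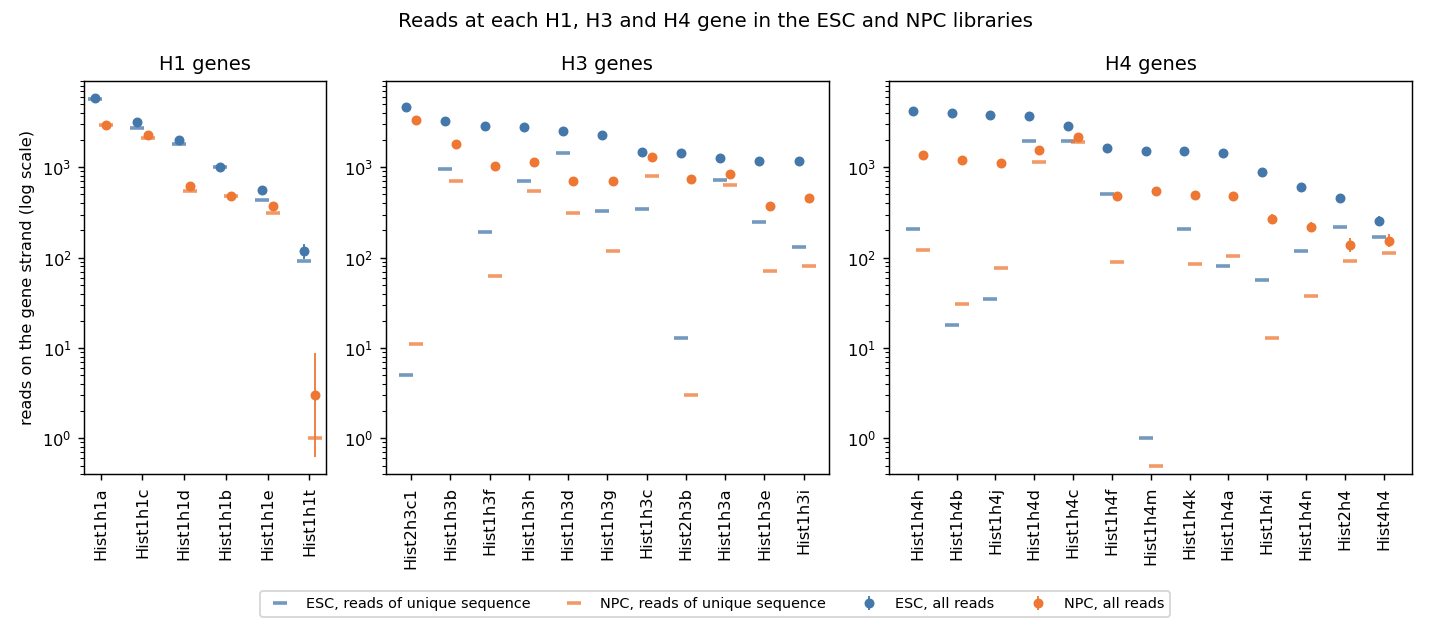
Reads on the gene strand at each H1, H3 and H4 gene on a log axis, with circles for all reads (95% Poisson interval) and dashes for reads whose 48 nt occur once in mm9, in ESC (blue) and NPC (orange). All reads are lower in NPC in each of the 30 genes. The dashes sit close to the circles in H1 and far below them in most H3 and H4 genes, and the dash of Hist1h4m in NPC stands for 0 reads.

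The H1 genes could be told apart. Reads whose 48 nt occur once in mm9, called unique here, made up 93.2% of the H1 reads in ESC and 94.8% in NPC. Hist1h1a, a linker histone of dividing cells, had the most, with 5686 unique reads in ESC and 2919 in NPC, a ratio of 0.498 (0.476 to 0.521). Hist1h1c, a somatic linker histone found in most tissues, had 2750 and 2105, a ratio of 0.743 (0.702 to 0.787), the highest of the class. Hist1h1d, a further somatic linker histone, had 1812 and 544, a ratio of 0.291 (0.264 to 0.321). As unique RPM per kb of unique windows, the levels of Hist1h1a were 1921 and 957, those of Hist1h1c 1183 and 872, and those of Hist1h1d 762 and 217, so the order of these 3 genes was kept.

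Hist1h1t, the linker histone of the testis, stood apart at the lower end. It had 92 unique reads in ESC and 1 in NPC, a ratio of 0.0106 (0.000264 to 0.0603), and 117 and 3 reads when all were counted. Its ESC reads began at 54 different positions. Hist1h1b and Hist1h1e, the other somatic linker histones here, had 1002 and 439 unique reads in ESC and 478 and 314 in NPC.

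The H3 genes held few reads of their own. Unique reads were 20.4% of the H3 reads in ESC and 27.02% in NPC. A further 51.6% and 38.1% had a sequence that occurs several times but only in H3 genes, and 26.6% and 33.8% had a copy outside the class. The copies outside lay mostly in 3 genes, Hist2h3c2, Hist2h2aa2 and Hist1h2al. By name Hist2h3c2 is an H3 gene that is not a member, and the other 2 are H2A genes. In the other direction, reads with the sequence of an H3 member that had been placed elsewhere in the genome numbered 2359 in ESC and 546 in NPC, or 9.51% and 4.40% of the H3 count. The places with the most of them were H2A genes, led by H2afx and Hist1h2ad in ESC and by Hist1h2ai in NPC. The annotated exon of Hist2h3c1 runs over an H2A gene, as described below, so H2A sequence counts here as that of an H3 member.

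Among the H3 genes with the most unique reads, Hist1h3d had 1426 in ESC and 315 in NPC, a ratio of 0.214 (0.189 to 0.242), the lowest of the class. Hist1h3b had 950 and 703, a ratio of 0.718 (0.651 to 0.793). Hist1h3a had 719 and 640, a ratio of 0.864 (0.776 to 0.963). Hist1h3d was thus the highest of the 3 in the ESC and the lowest in the NPC library. As unique RPM per kb of unique windows, Hist1h3d had the highest level of the class in ESC, 2253, and 471 in NPC, where Hist1h3h was highest with 1322.

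Hist1h3c went the other way when only unique reads were counted. It had 346 in ESC and 807 in NPC, a ratio of 2.26 (1.99 to 2.58), while all of its reads numbered 1469 and 1313, a ratio of 0.868 (0.805 to 0.935). Hist2h3b, with 13 and 3, and Hist2h3c1, with 5 and 11, had too few unique reads to give a direction of their own.

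Hist2h3c1 also shares its annotated exon, chr3:96049477-96052431, with the H2A gene Hist2h2aa1 at chr3:96049461-96050038. Of its reads, 3082 in ESC and 2576 in NPC lay over that gene, or 67.2% and 78.0%. Outside it the counts were 1505 and 727, a ratio of 0.469 (0.429 to 0.513). Without the reads over Hist2h2aa1 the H3 class had 21733 and 9842 reads, a ratio of 0.440 (0.429 to 0.450). No other member shared an exon with another gene on its strand.

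The H3 genes encode the proteins H3.1 and H3.2, which differ at codon 97, counted from the start codon. The 4 genes with TGT there, Hist1h3a, Hist1h3g, Hist1h3h and Hist1h3i, had 7508 reads in ESC and 3145 in NPC, a ratio of 0.407 (0.390 to 0.424). The 7 genes with AGC had 17307 and 9273, a ratio of 0.520 (0.507 to 0.533). They include Hist2h3c1, of whose reads 3082 in ESC and 2576 in NPC lay over the H2A gene Hist2h2aa1. Those reads had a ratio of 0.811, which is above that of the group and so raises it. For reads with no copy outside their own group, the ratios were 0.474 (0.448 to 0.503) and 0.531 (0.508 to 0.554), so both groups were lower in NPC and the gap between them was smaller.

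The H4 genes shared their sequence among themselves alone. Unique reads were 20.7% of the H4 reads in ESC and 37.1% in NPC, and the others, 77.7% and 61.0%, had further copies only in H4 genes, apart from the small share with no exact match in mm9. Hist1h4c had 1976 unique reads in ESC and 1883 in NPC, a ratio of 0.925 (0.868 to 0.986). Hist1h4d had 1965 and 1131, a ratio of 0.559 (0.519 to 0.601). Hist1h4f had 504 and 90, a ratio of 0.173 (0.137 to 0.217), the lowest of the class.

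These 3 genes encode the same H4 protein and lay near each other in the Hist1 cluster, yet their ratios did not overlap. As unique RPM per kb of unique windows, the levels were 2787 and 2577 in Hist1h4c, 1943 and 1172 in Hist1h4d and 660 and 108 in Hist1h4f. Hist1h4j had the highest ratio, with 35 unique reads in ESC and 76 in NPC, a ratio of 2.11 (1.39 to 3.24), against 3808 and 1125 when all reads were counted. Hist1h4m had 1 unique read in ESC and 0 in NPC.

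**Figure D2:**
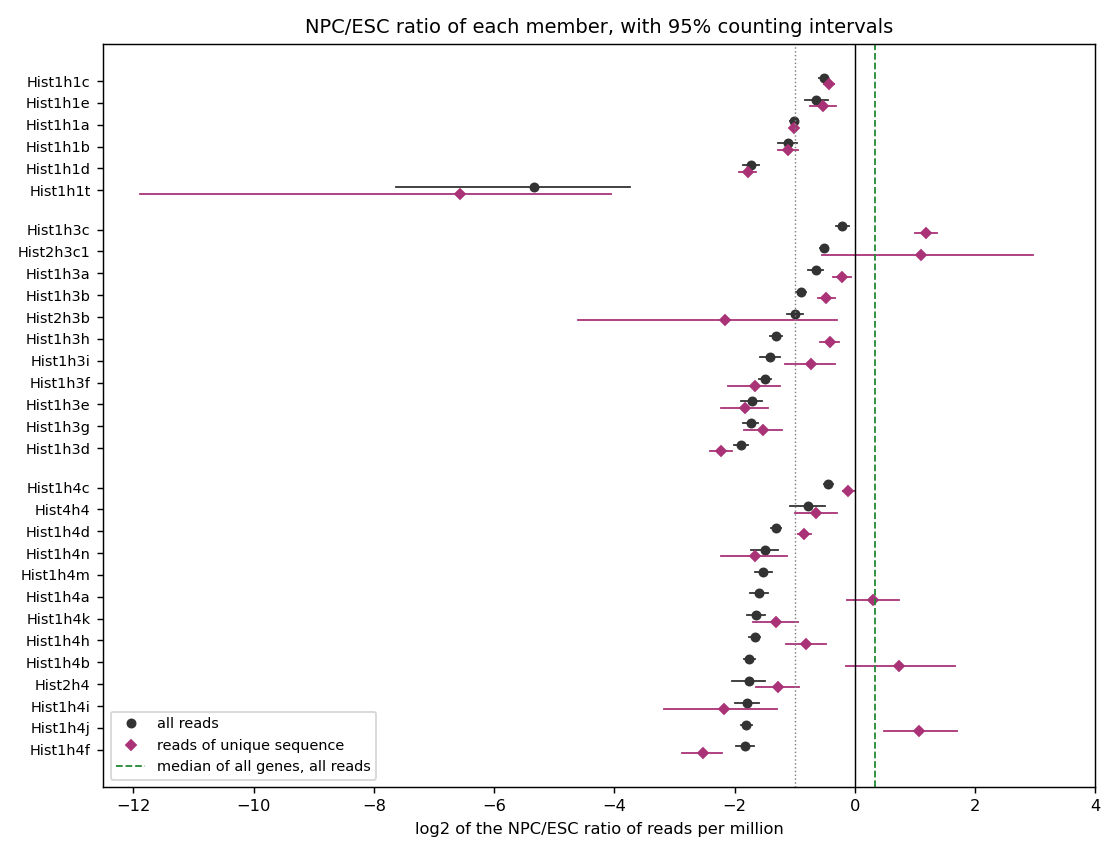
Log2 ratio of NPC to ESC in RPM for each member, from all reads and from reads of unique sequence, with 95% intervals from counting alone, a dotted line at 2-fold lower and a dashed line at the median of all genes (0.34). All-read ratios lie below 0 in each of the 30 genes, while unique reads place Hist1h3c and Hist1h4j wholly above 0, and Hist1h4m, with 1 unique read, has no unique point.

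Over the unique reads of each class the ratio was 0.524 (0.508 to 0.540) in H1, 0.643 (0.616 to 0.672) in H3 and 0.660 (0.633 to 0.688) in H4. Of the 29 members with at least 10 unique reads, the interval lay wholly below 1 in 24 and wholly above 1 in 2, Hist1h3c and Hist1h4j, and it held 1 in 3. Over 2-fold lower were 14 of the 29, beside 12.6% of genes counted the same way. Over 2-fold higher by the ratio of unique reads were 3, Hist1h3c, Hist2h3c1 and Hist1h4j, beside 27.1%, and that of Hist2h3c1, from 5 and 11 reads, had an interval that held 1.

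The order of the classes turned with the reads that were counted. With all reads the H4 ratio was 0.715 times that of H1 (0.689 to 0.742) and 0.758 times that of H3 (0.735 to 0.783). With unique reads it was 1.26 times that of H1 and 1.03 times that of H3 (0.966 to 1.09). With reads whose copies all lie in the class, which include the shared coding sequence, it was 0.705 and 0.836 times. With each of these sets of reads all 3 classes were lower in NPC, but their order changed.

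The H4 reads that occur in 6 to 10 places numbered 18111 in ESC and 5345 in NPC, a ratio of 0.287, lower than the ratio of the unique H4 reads. In H3, reads that occur in 2 places had a ratio of 0.362 and those in 3 to 5 places one of 0.547. The H3 reads here include those of Hist2h3c1 that lay over the H2A gene Hist2h2aa1.

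**Figure D3:**
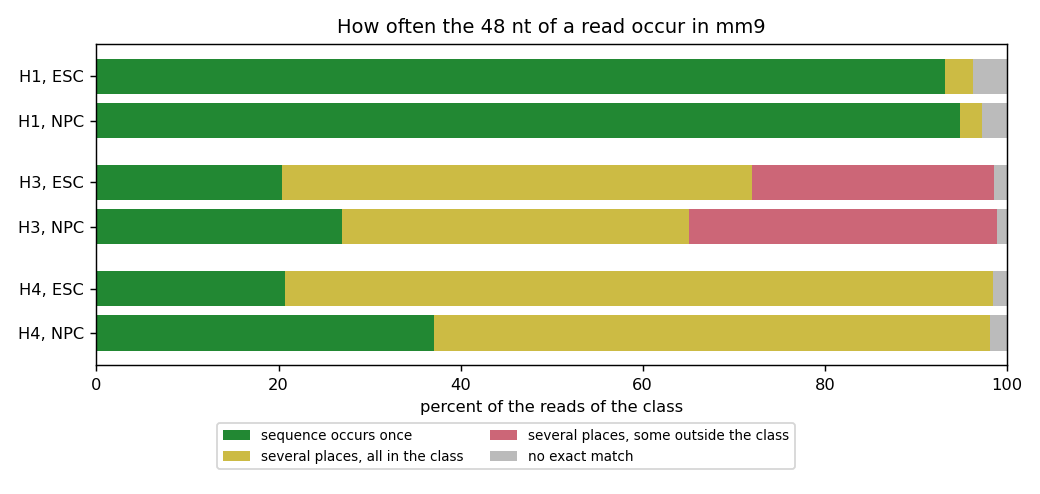
Share of the reads of each class, in percent for ESC and NPC, by whether their 48 nt occur once in mm9, several times within the class, several times with a copy outside it, or with no exact match. Unique reads take 93.2% of H1 but 20.4% of H3 and 20.7% of H4 reads in ESC, and a copy outside the class is common only in H3. The H3 reads include those over the H2A gene Hist2h2aa1, which the annotated exon of Hist2h3c1 overlaps.

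Where the reads began along the RNA also differed between the libraries. Positions are counted from the last base of the stem-loop, with negative values before it, for reads that start from 600 nt before that base up to it. The median start moved from -235 in ESC to -206.5 in NPC in H1, from -138 to -117 in H3 and from -136 to -128 in H4. Starts within 100 nt of the end made up 4.13% of such reads in ESC and 15.5% in NPC in H3, 4.67% and 11.4% in H4, and 0.598% and 0.991% in H1.

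The H3 reads that were more numerous in NPC were those that start over 80 and up to 100 nt before the end, with 487 in ESC and 1324 in NPC, a ratio of 2.64 (2.38 to 2.93). On both sides of that band the H3 reads were lower in NPC. Within 80 nt of the end they numbered 409 and 200, a ratio of 0.475 (0.399 to 0.564), and over 100 nt before it 20819 and 8286, a ratio of 0.386 (0.377 to 0.396). For all H3 starts within 100 nt the ratio was 1.65 (1.52 to 1.80), but within 120 nt it was 0.621 (0.599 to 0.642), so a single cut decides which side of 1 it falls on.

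In H4 none of these bands had a ratio above 1. Its reads numbered 620 and 520 within 80 nt, a ratio of 0.814 (0.723 to 0.916), and 634 and 638 over 80 and up to 100 nt before the end, a ratio of 0.977 (0.874 to 1.09). Over 100 nt before the end they numbered 25577 and 9025, a ratio of 0.343 (0.334 to 0.351). In H1 the reads within 100 nt of the end were few, 67 and 62, a ratio of 0.898 (0.626 to 1.29), against 0.540 further upstream, and with a cut at 120 nt the near ratio became 0.865 times the far ratio. The bands were chosen after seeing the data.

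**Figure D4:**
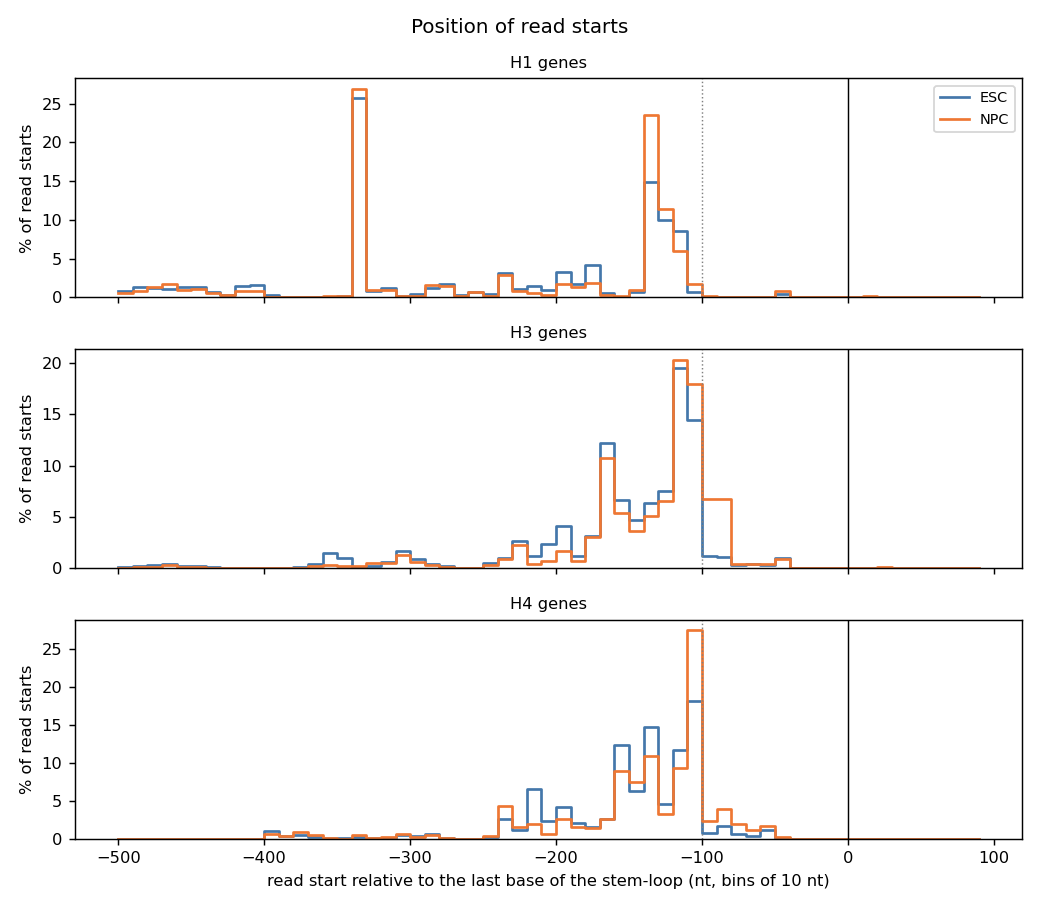
Share of read starts, in percent of the reads that start 600 to 0 nt before the last base of the stem-loop, drawn from -500 to 100 nt in bins of 10 nt for each class in ESC (blue) and NPC (orange), with a dotted line at -100 and a solid line at the stem-loop end. In H3 the starts from -100 to -81 nt, in 2 bins, make up 2.24% in ESC and 13.5% in NPC.

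Member by member, the ratio within 100 nt of the end was above the ratio further upstream in 28 of the 29 members with reads in both parts, 5 of 5 in H1, 11 of 11 in H3 and 12 of 13 in H4, and Hist4h4 was the exception. The count in H3 depended on the cut, with 4 of 11 at 80 nt and 10 of 11 at 120 nt, while that in H4 was 11 of 13 and 12 of 13. Over 100 nt before the end the ratio was below 1 in 29 of 29, from 0.259 to 0.505 in H3 and from 0.244 to 0.684 in H4. In NPC Hist1h3c had the most H3 reads within 100 nt of the end, 644 against 178 in ESC, while its reads further upstream numbered 669 against 1290. A single start position of Hist1h3c, at -90, had 54 reads in ESC and 296 in NPC. Without Hist1h3c the H3 reads over 80 and up to 100 nt before the end numbered 315 and 698, a ratio of 2.15 (1.88 to 2.47), and those within 100 nt 718 and 880, a ratio of 1.19 (1.08 to 1.31).

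Unique sequence and start position were linked in these genes. Of the 48-nt windows that reach past the stop codon, most of which begin in the coding sequence, 85.7% occurred once in mm9 in H3 and 84.1% in H4. With the cut at 100 nt, the H3 reads of unique sequence had a ratio of 1.65 near the end and 0.452 further upstream, and those with several copies 1.71 and 0.370. In H4 the unique reads had 0.871 near the end and 0.609 further upstream, and those with several copies 0.989 and 0.284. The part that the start position plays in the ratios of unique reads was not tested beyond these values.

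**Figure D5:**
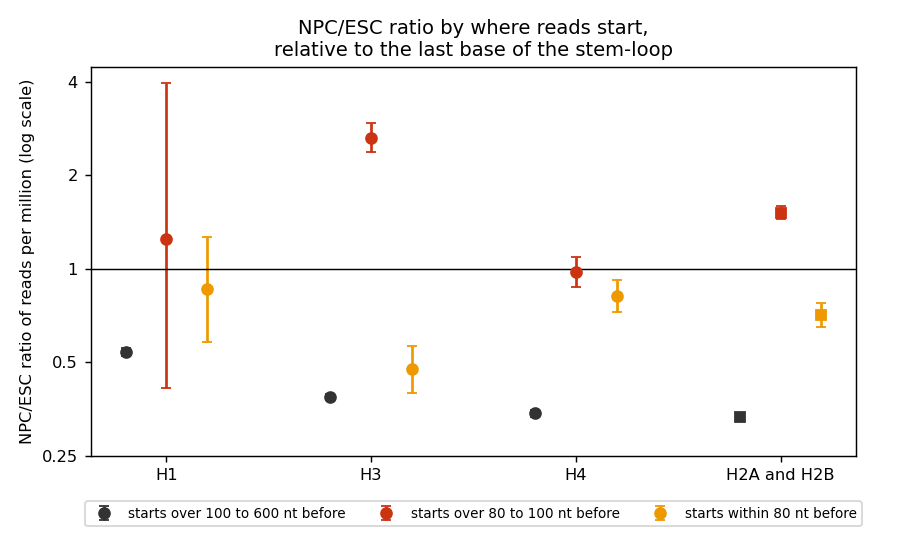
Ratio of NPC to ESC in RPM on a log axis for H1, H3 and H4 (circles) and for the H2A and H2B genes (squares), by the distance of the read start before the last base of the stem-loop, over 100 to 600 nt (black), over 80 to 100 nt (red) and within 80 nt (orange), with 95% intervals from counting alone. The H3 ratio is 2.64 in the middle band and 0.386 and 0.475 on its sides, while in H4 the values are 0.343, 0.977 and 0.814 and do not pass 1.

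The H2A and H2B genes, which are not members, were counted in the same way. Of these, 31 held the stem-loop letters. Their reads had a ratio of 1.52 (1.44 to 1.59) over 80 and up to 100 nt before the end, from 2765 reads in ESC and 4317 in NPC. Within 80 nt the ratio was 0.710 (0.648 to 0.777), and over 100 nt before the end it was 0.332. Within 120 nt it was 1.05 (1.02 to 1.08), so unlike in H3 it stayed above 1 at that cut. Over 100 and up to 120 nt before the end it was 0.880, against 0.495 in H3. Starts in H1 were held by few positions. In Hist1h1a, the positions -334 and -332 had 1605 and 1129 reads in ESC and 919 and 684 in NPC. In Hist1h1c, position -137 had 994 and 393 reads, whereas position -132, 5 nt away, had 222 and 765, a ratio of 3.35 (2.88 to 3.90). In Hist1h4c, the position -110 alone took 34.8% of the reads in ESC and 35.6% in NPC. How RNA fragmentation, the size selection of the libraries and amplification act on such positions, and on the bands above, was not tested.

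Few reads covered the end of the stem-loop. Nearly all deposited reads span 48 nt, so where a read ends follows from where it starts and does not mark the end of the RNA. An RNA that ends just past the stem-loop also leaves room for few such starts, so read length limits this count. Reads that cover its last base numbered 85 in ESC and 88 in NPC over the 30 members, and 77 and 82 of them ended 0 to 5 nt past it. Hist1h1e alone held 45 in each library, all of which ended in that range. Most of these began at a single position, -43, with 44 reads in ESC and 40 in NPC. The reads that ran further were 8 and 6.

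Past the stem-loop there was little RNA in either library. Within 1000 nt past it, and outside the span of every other gene on the strand, there were 34 reads in ESC and 62 in NPC for H1, 64 and 86 for H3 and 43 and 49 for H4. In RPM the ratio over all members was 1.36 (1.09 to 1.70), from 141 and 197 reads. In H1 it was 1.77 (1.15 to 2.77), with Hist1h1c at 21 and 31 reads, and in H3, at 1.30 (0.933 to 1.83), and in H4, at 1.11 (0.719 to 1.71), the intervals held 1. Per 100 reads that start in the 600 nt before the stem-loop end, these were 0.236 in ESC and 0.750 in NPC, where the reads before the end were fewer. Leaving out whole genes in this count was chosen after seeing the data.

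Counted from the annotated gene ends instead, and outside the exons of other genes alone, the reads were 17 and 24 for H1 and 47 and 50 for H4, but 2729 and 4084 for H3. Hist2h3b held 2691 and 4034 of the H3 reads, and all but 28 and 12 of these lay inside the span of another gene, outside its exons. Outside the span of other genes, H3 had 66 and 62. Such counts of the annotated ends gave a ratio over all members of 1.02 (0.793 to 1.30), from 130 and 136 reads. Antisense reads on the members were 14 in ESC and 3 in NPC.

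Other histone genes and the genes that process histone mRNA were set beside the members. Of the 37 H2A and H2B genes, 36 had at least 10 reads, 19 were over 2-fold lower in NPC and 0 higher, beside the 13.3% and 25.5% of all genes, with a median log2 ratio of -1.14 and 52800 and 21539 reads in all. Hist1h2bg had the most reads, 4397 in ESC and 1403 in NPC. The extremes were Hist1h2bm, with 2739 and 455, and Hist2h2ac, with 182 and 255.

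The genes for histone variants that are made outside S phase carry poly(A) tails, so their counts here are what was left after poly(A) removal. Of 8, 6 had at least 10 reads, and their median log2 ratio was 0.33, beside 0.34 over all genes. Over 2-fold lower were 0 and over 2-fold higher 1, beside 13.3% and 25.5% of all genes. H3f3b, a source of the replacement histone H3.3, had 918 reads in ESC and 1412 in NPC. H1f0, the linker histone of cells that leave the cycle, had 59 and 251, a log2 ratio of 2.03. Cenpa, the H3 variant of centromeres, had 347 and 188, a log2 ratio of -0.92.

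Factors that transcribe, process or degrade histone mRNA had a median ratio above 1, as did all genes with at least 10 reads. Of 24 such genes 22 were in the annotation and had at least 10 reads. Over 2-fold lower were 0 and over 2-fold higher 2, beside 13.3% and 25.5% of all genes. Their median log2 ratio was 0.51, beside 0.34 over all genes. Cpsf1, the large subunit of the cleavage and polyadenylation factor, had the most reads and the lowest ratio, with 670 in ESC and 451 in NPC, a log2 ratio of -0.61. Ncbp2, the small subunit of the nuclear cap-binding complex, had the highest, with 38 and 152 reads, a log2 ratio of 1.93. Slbp, the stem-loop binding protein, had 153 and 262 reads, and Npat, the coactivator of histone gene transcription, had 329 and 436. Both were named for their role after their values were seen.

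The labels were checked against marker genes. Beside each count of markers stand the shares of all genes with at least 10 reads, 13.3% over 2-fold lower and 25.5% over 2-fold higher. Of 11 pluripotency markers 9 were over 2-fold lower in NPC, with 10468 reads in ESC and 3008 in NPC in sum. Of 8 neural progenitor markers in the annotation, 5 had at least 10 reads, with 267 and 319 reads in sum. Over 2-fold higher were 2 of the 5, Pax6 with 1 and 12 reads and Zic1 with 1 and 22, so each rests on 1 ESC read. The better covered markers differed in direction. Msi1, with 99 and 60 reads, was lower in NPC, a ratio of 0.588. Ncam1 had 100 and 104 reads, a ratio of 1.01, and Nes had a ratio of 1.78. Olig2 had 0 in both libraries and Fabp7 0 and 2. All 8 markers of extraembryonic endoderm were over 2-fold higher in NPC, with 1711 and 43562 reads in sum. Of 7 fibroblast markers 5 had at least 10 reads, 1 over 2-fold lower and 1 higher, with 180 and 252 in sum. The part of these other cell types, and of a different share of cells in S phase, in the fall of the histone reads was not tested.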

How the data were processed

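Strand-specific SOLiD reads had been aligned by the authors with Bowtie (version not given in the sources used here) against mm9, without uniqueness being enforced. After reads on the mitochondrion, ribosomal RNA and repeats had been filtered out, the authors deposited the placement of every remaining read with its strand and 48 nt of sequence, a unit that is neither a count table nor a normalized value. Reads on the gene strand that overlap an exon by at least 1 base were counted from these deposited placements, and each read counts once in a class total. The 48 nt were searched on both strands of mm9. Because the authors' aligner placed each shared read at only 1 of its copies, counts of single H3 and H4 genes are uncertain where reads are shared, and class totals less so.

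The libraries held 4271306 (ESC) and 4399729 (NPC) reads, of which 78.2% and 83.2% had a sequence that occurs once. Ratios are NPC over ESC in RPM, computed here, with conditional binomial intervals, and log2 ratios add 1 read. Ratios with each start counted once are scaled by the distinct starts of the library instead, 1531216 in ESC and 1848069 in NPC. Genes with fewer than 10 reads in both libraries together were left out of lists. Values are given for the 3 members of a class with the most unique reads, the highest and lowest unique ratio, and members under 10 reads, and other members were named after their values were seen. The members and lists were chosen with earlier results of these data known. Counting was tested on simulated data. Python 3.11.15, SciPy 1.17.1, pandas 2.3.3, pysam 0.24.0 and Biopython 1.88 were used.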

Additional observations from a re-analysis of the deposited data

How the results depend on the processing

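With 1 library per cell type no value has a replicate error, and single members of H3 and H4 rest on few unique reads. The log2 ratio of all reads was below 0 for 30 of 30 members under each setting computed for single members, namely other scalings, added reads, minimums and gene intervals and each start once, except unique reads (25 of 30), where Hist1h3c became 1.18, Hist2h3c1 0.96, Hist1h4a 0.30, Hist1h4b 0.71 and Hist1h4j 1.05. The class ratios (H1, H3, H4) were 0.564, 0.561 and 0.641 with each start once, 0.480, 0.452 and 0.343 scaled outside the 10 largest clusters, and 0.407, 0.384 and 0.291 scaled by the median of ratios. Unique reads gave 0.643 in H3 and 0.660 in H4, and coding exons 0.440 in H3. Members over 2-fold lower numbered 2, 0 and 0 with each start once, and 5 in H4 with unique reads. The H4 median log2 ratio was -0.82 with unique reads, -0.59 with each start once and -1.98 with the median of ratios. The share of unique reads with each start once was 83.6% and 87.0% in H1 (ESC, NPC), 23.9% in H3 in ESC and 28.5% and 31.7% in H4.

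Downstream reads per 100 gene reads (ESC, NPC) were 0.269 and 0.924 in H1 from the stem-loop end. In a window of 200 nt they were 0.149 in H1 in NPC, 0.0282 and 0.169 in H3 and 0.0932 and 0.167 in H4. Unique reads gave 5.27 and 8.26 in H3 and 0.809 and 1.30 in H4. Each start once gave 1.53 and 2.90 in H1, 6.77 and 10.2 in H3 and 2.69 and 3.82 in H4.

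Further alternatives were chosen after seeing the data. Reads with all places in the class gave an H3 ratio of 0.439, and leaving out Hist2h2aa1 gave 0.440. Starts over 100 nt before the stem-loop end gave 0.540, 0.386 and 0.343, and starts nearer to it 0.898, 1.65 and 0.896, with 17 of 29 members above 1. At 80 nt and 120 nt the near H3 ratio was 0.475 and 0.621. The ratios of H4 to H1, H4 to H3 and H3 to H1 were 1.26, 1.03 and 1.23 with unique reads, 1.14, 1.14 and 0.996 with each start once and 0.634, 0.887 and 0.715 with the far starts, and the last 2 were 0.836 and 0.843 with places confined to the class. The near ratio over the far ratio was 0.865 in H1 at 120 nt. In H3 it was 1.08 at 80 nt, 1.90 at 120 nt, 3.64 with unique reads, 1.58 with each start once and 3.14 without Hist1h3c. In H4 it was 2.27 at 80 nt, 1.76 at 120 nt, 1.43 with unique reads and also 1.43 with each start once. H3 downstream reads per 100 were 0.266 and 0.499 outside the span of other genes and 0.162 and 0.428 without Hist2h3b. The causes were not tested. No paired analysis was possible because each cell type has 1 library.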
